A study of Mus musculus with 4 samples.

Results

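The erythropoietin receptor and the Jak-Stat genes downstream of it were followed in DS19 cells, a mouse erythroleukemia (MEL) line. The set of 10 genes, out of 17393 in the table, was chosen by symbol and comprised the receptor Epor, the kinases Jak2 and Lyn, the transcription factors Stat5a, Stat5b and Stat3, the feedback inhibitors Cish, Socs1 and Socs3, and the target kinase Pim1. All 10 had a row and passed the filter on low values, each at 1 FPKM or more in every library. RNA was sequenced from 2 libraries of Wdr26-/- cells and 2 libraries of wild-type cells, numbered 1 and 2 in each genotype. Wdr26 encodes a subunit of the CTLH E3 ubiquitin ligase. The growth text, shared by both genotypes, names 1.5% dimethyl sulfoxide, which drives MEL cells toward a red cell-like state, without saying if the cells that were sequenced had been treated. The sources used here do not state if the knockout cells were a single clone, or if the replicate libraries were grown as separate cultures. The p-values therefore measure only the spread between these libraries, which may be technical.

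Erythropoietin binding to Epor activates the kinase Jak2, which is bound to the receptor's cytoplasmic tail. Jak2 phosphorylates the receptor, Stat5 proteins dock there, are phosphorylated in turn, and enter the nucleus to switch on genes for survival and growth. Cish and the Socs proteins are products of such target genes and damp the signal, and this pathway is required for the survival of red cell precursors. MEL lines come from mice infected with the Friend virus complex, whose gp55 envelope protein can bind Epor and activate it. The table gives mRNA levels in FPKM, which divides the fragments of a gene by its transcript length and the library's depth, and says nothing about phosphorylation, on which much of this pathway runs.

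Wdr26 itself stood at 9 and 7.84 FPKM in the knockout libraries, against 55.4 and 52.4 FPKM in the wild-type libraries (limma adjusted p = 0.0063). Erythroid identity was visible in both genotypes, since all 8 erythroid markers (among them Hba-a1, Hbb-b1, Alas2, Klf1, Gata1, Tfrc and Slc4a1) exceeded 1 FPKM. Of these markers 4 (Alas2, Klf1, Tfrc and Slc4a1) were lower in both knockout libraries, beside 10.8% of all tested genes, and 4 overlapped. The same 4 were lower in both when each library was shifted to the same median, beside 20.1% of all tested genes. Slc4a1, the anion exchanger of the red cell membrane, stood at 48.6 and 6.70 FPKM in knockout and at 436 and 285 FPKM in wild type (log2 difference −4.18, limma adjusted p = 0.166). Its difference passed when knockout library 1 (−5.52) or knockout library 2 (−2.83) was left out, and not when a wild-type library was. Tfrc, the transferrin receptor and also one of the Stat5 or erythropoietin targets listed below, stood at 314 and 187 FPKM in knockout and at 531 and 397 FPKM in wild type (limma adjusted p = 0.313, 2.58e-06 without knockout library 1, and between 0.251 and 0.958 with any other library left out). The summed level of the markers, most of it from Hba-a1 and Hbb-b1, was 152337 and 178445 FPKM in knockout and 167319 and 206630 FPKM in wild type. The part of these marker differences in the results below was not tested. Lymphoid, mast cell and fibroblast markers stayed under 1 FPKM wherever they were listed. Among granulocyte and monocyte markers only Prtn3 exceeded it, at 6.84 and 12.2 FPKM in knockout and 2.88 and 3.59 FPKM in wild type. Megakaryocyte markers summed to 278 and 289 FPKM in knockout and 250.2 and 305 FPKM in wild type. Of these, 3 of 5 (Itga2b, Gp9 and Gp1ba) were higher in both knockout libraries, beside 29.9% of all tested genes. When each library was shifted to the same median, Gp1ba stayed higher in both, beside 19.9% of all tested genes, while Itga2b and Gp9 overlapped. Depth estimated from the smallest steps in the values was about 26000000 and 25600000 fragments in knockout and 25900000 and 26900000 in wild type.

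In knockout cells the receptor transcript was at 79.4% of its wild-type mean and that of the target kinase Pim1 at 62.1%, while Stat5a was at 137%, but none of the 10 differences passed the test. Epor, Socs3 and Pim1 were below both wild-type values in each knockout library. Above both were Stat5a, Stat3 and Lyn, and the genotypes overlapped for Jak2, Stat5b, Cish and Socs1. Over all 10670 genes tested, 0.0937% passed (limma on log2(FPKM + 1), Benjamini-Hochberg adjusted p under 0.05), and 0 of 10 members did. The 3 members lower in both compare with 10.8% of all tested genes, and the 3 higher in both with 29.9%. At an unadjusted p under 0.05 there were 2 members, against 11.4% of all tested genes. Stat5a was the higher of them, as were 9.02% of all tested genes, and Pim1 the lower, as were 2.4%. When each library was shifted to the same median, 19.9% of all genes were higher and 20.1% lower in this sense. With that scaling the same 3 members, Epor, Socs3 and Pim1, were lower in both, and Stat5a alone was higher in both. The median log2 difference over the members was 0.09, beside 0.07 over all tested genes.

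**Figure D1:**
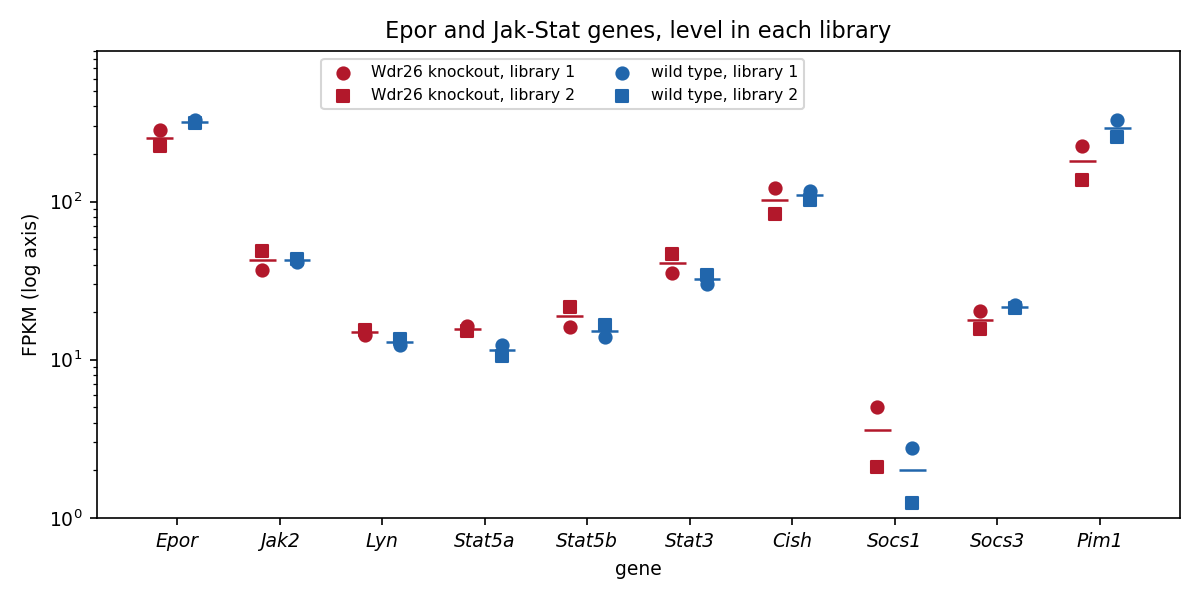
FPKM (log axis) of each of the 10 genes in the 2 Wdr26 knockout and 2 wild-type libraries, with circles for library 1, squares for library 2 and short lines for group means. Epor and Pim1 lie above 100 FPKM in all 4 libraries, Jak2, Lyn and the Stat genes lie between 10 and 50, and Socs1 is the lowest.

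The levels spanned a wide range, and FPKM, being scaled to length, can be set side by side between genes. In knockout the order of mean levels was Epor, Pim1, Cish, Jak2, Stat3, Stat5b, Socs3, Stat5a, Lyn and Socs1. In wild type it was Epor, Pim1, Cish, Jak2, Stat3, Socs3, Stat5b, Lyn, Stat5a and Socs1. Epor overlapped with Pim1 in both genotypes. In knockout Jak2 also overlapped with Stat3, Stat5b with Socs3, Socs3 with Stat5a, and Stat5a with Lyn, whereas no other neighbours in the wild-type order overlapped. The receptor transcript thus stood well above those of the kinase and the Stat proteins it signals through. The ratio of Epor to Jak2 FPKM was 7.68 and 4.6 in knockout and 7.84 and 7.17 in wild type. The ratio of Epor to the sum of Stat5a and Stat5b was 8.73 and 6.14 in knockout and 12.4 and 11.5 in wild type. Its lower value in both knockout libraries follows from the lower Epor and the higher sum there. It is therefore not a separate result, and it was not tested.

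Sequence before an annotated start is shown for the member with the largest difference in log2 level (Pim1), for Epor and the member whose pattern was most like it (Socs3), and for the member whose mean differed most relative to its spread among those that were higher (Stat5a). Stat proteins bind the palindrome TTCNNNGAA, and GATA factors, which drive erythroid genes, bind AGATAA. Both strands were searched (TTCNNNGAA reads the same on each), and capitals mark every match; no matches overlap. The stretches are the 250 bases before a RefSeq start (GRCm38.p6, the mm10 build), written 5′ to 3′ on the gene's strand: Epor at chr9:21963577-21963826 (minus), Socs3 at chr11:117969367-117969616 (minus), Pim1 at chr17:29490535-29490784 (plus) and Stat5a at chr11:100859406-100859655 (plus). The Epor, Pim1 and Cish starts are the first base of the gene's RefSeq span, whereas the Socs3 and Stat5a starts lie 970 and 305 bases inside it, so that those stretches are within the annotated gene. For Cish the first 30 bases after the start are shown (chr9:107296659-107296688, plus), because both of its matches lie there.
Epor: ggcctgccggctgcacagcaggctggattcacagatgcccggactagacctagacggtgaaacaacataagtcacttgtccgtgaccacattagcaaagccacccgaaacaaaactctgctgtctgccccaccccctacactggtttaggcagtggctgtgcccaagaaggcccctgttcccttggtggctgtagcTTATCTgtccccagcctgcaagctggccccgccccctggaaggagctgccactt
Socs3: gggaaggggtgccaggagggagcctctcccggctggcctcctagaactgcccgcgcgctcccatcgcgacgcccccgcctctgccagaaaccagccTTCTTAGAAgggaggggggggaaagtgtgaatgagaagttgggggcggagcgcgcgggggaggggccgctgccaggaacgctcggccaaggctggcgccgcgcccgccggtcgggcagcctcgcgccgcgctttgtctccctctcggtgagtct
Pim1: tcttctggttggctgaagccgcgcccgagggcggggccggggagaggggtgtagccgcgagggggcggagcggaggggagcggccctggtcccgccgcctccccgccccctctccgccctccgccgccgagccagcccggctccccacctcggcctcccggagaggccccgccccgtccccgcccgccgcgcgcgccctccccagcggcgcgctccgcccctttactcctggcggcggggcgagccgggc
Stat5a: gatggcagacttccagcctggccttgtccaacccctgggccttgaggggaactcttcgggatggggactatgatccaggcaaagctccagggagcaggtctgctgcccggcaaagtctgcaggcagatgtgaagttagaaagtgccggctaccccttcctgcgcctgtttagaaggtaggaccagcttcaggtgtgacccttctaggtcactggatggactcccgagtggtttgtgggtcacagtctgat
Cish: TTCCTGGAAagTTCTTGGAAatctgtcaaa

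The table of RefSeq starts held 12 windows for 9 of the members, each from 250 bases before to 50 after a start, and Lyn had no window. The Stat5b starts lay 36434 and 8423 bases inside its RefSeq span, so the first base of that span was not searched. Another Pim1 start lay 2300 bases inside. TTCNNNGAA occurred in windows of 2 members, Cish and Socs3, and in 8.3% of all 32851 windows of that length. Cish held it at bases 1 to 9 and again at bases 12 to 20 after the start, and 0.457% of all windows held 2 or more matches. In Socs3 the match lay at bases −154 to −146 relative to the start. AGATAA was found in 1 member, Epor, on the opposite strand (TTATCT) at bases −54 to −49, and in 11.2% of all windows. The Pim1 and Stat5a stretches held neither motif. The Pim1 stretch was 82.4% G and C, that of Socs3 71.6%, that of Epor 58.8% and that of Stat5a 57.6%. A match describes the letters in the window and is not evidence of binding.

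Epor (gene ID 13857, chromosome 9, 21958897 to 21963576, mm10) stood at 283 and 225 FPKM in the knockout libraries, against 327 and 313 FPKM in the wild-type libraries. Neither knockout value reached a wild-type value, and knockout library 2 was the lowest. Epor ranked 218 and 250 among all genes in knockout, and 187 and 193 in wild type. Epor averaged 254 ± 40.9 FPKM in knockout and 320.1 ± 9.79 FPKM in wild type (SD, n = 2 each), so that the knockout stood at 79.4%. The log2 difference was −0.34 with a standard error of 0.16 and a 95% interval of −0.73 to 0.05, which did not pass the test (limma adjusted p = 0.513). Leaving out knockout library 2 gave −0.18, and leaving out knockout library 1 gave −0.51. In a bulk sample, less RNA per cell and fewer cells expressing a gene cannot be told apart. Transcripts assembled from the reads are part of the values of Epor and Lyn (1 each) and of Stat5a (2).

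Of the receptor-proximal kinases, Jak2 did not separate the genotypes. Jak2 (gene ID 16452, chromosome 19, 29251803 to 29313095) had 36.9 and 49.0 FPKM in knockout and 41.7 and 43.7 FPKM in wild type. The wild-type values lay between those of the knockout, and the log2 difference was −0.01 with a 95% interval of −0.42 to 0.41 (limma adjusted p = 0.994). Jak2 made up 26.1% and 28.2% of the summed FPKM of the 4 Jak family genes in knockout, against 29.1% and 29.2% in wild type. Lyn, a Src family kinase that associates with Epor (gene ID 17096, chromosome 4, 3678068 to 3791612), had 14.4 and 15.4 FPKM in knockout and 12.4 and 13.6 FPKM in wild type. Both knockout values were higher, by 0.18 on the log2 scale (SE 0.13, limma adjusted p = 0.703), and the genotypes overlapped once the libraries were centred on their medians. An exon of the antisense gene Gm26857 covers part of Lyn, with 248 shared bases that cannot be told apart unless the libraries kept strand, which no source used here states.

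The 3 Stat genes had higher means in knockout, and they are neighbours in the genome. Stat5b, Stat5a and Stat3 follow each other on chromosome 11 within 158864 bases. The Stat5b and Stat5a spans, which run away from each other, are 346 bases apart, and the Stat5a and Stat3 spans 1636 bases, in RefSeq. Stat5a (gene ID 20850, 100859351 to 100885169) stood at 16.4 and 15.1 FPKM in knockout, against 12.3 and 10.6 FPKM in wild type. Both knockout libraries were higher and the groups were well apart relative to their spread. The mean was 15.7 ± 0.870 FPKM in knockout and 11.5 ± 1.25 FPKM in wild type (SD, n = 2 each), 1.37-fold, with a log2 difference of 0.43 (SE 0.14, 95% interval 0.08 to 0.78). Its unadjusted p was 0.024, and it did not pass over all genes (limma adjusted p = 0.361).

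Stat5b (gene ID 20851, 100780731 to 100859004) stood at 16.1 and 21.5 FPKM in knockout and at 13.9 and 16.6 FPKM in wild type. Knockout library 1 lay just under wild-type library 2, and the log2 difference of 0.27 (SE 0.18) did not pass the test (limma adjusted p = 0.663). Stat5a and Stat5b are close copies, and 608 stretches of 50 bases were identical between their longest coding transcripts, 15.8% of those in Stat5a and 11.8% of those in Stat5b. The split of reads between them is therefore uncertain. The sum of their FPKM, which leans less on the split, was 32.4 and 36.7 in knockout and 26.3 and 27.2 in wild type. That sum was higher in both knockout libraries, as were 29.9% of all tested genes. It was not computed with median-centred values, where Stat5a was higher in both and Stat5b overlapped. The ratio of Stat5a to Stat5b followed the library number instead, at 1.02 and 0.703 in knockout and 0.885 and 0.637 in wild type.

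Stat3 (gene ID 20848, 100886806 to 100939594), which carries signals of the interleukin-6 receptor family among others, stood at 35.3 and 46.7 FPKM in knockout and at 29.99 and 34.4 FPKM in wild type. Both knockout libraries were higher, library 1 only slightly, and the log2 difference was 0.33 (SE 0.18, limma adjusted p = 0.573). Leaving out knockout library 2 gave 0.13 and leaving out knockout library 1 gave 0.53, and the genotypes overlapped with median-centred values. In GENCODE M21, whose Stat3 model extends further than the RefSeq span given here, the ends of Stat3 and Stat5a overlap on opposite strands by 72 exon bases.

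**Figure D2:**
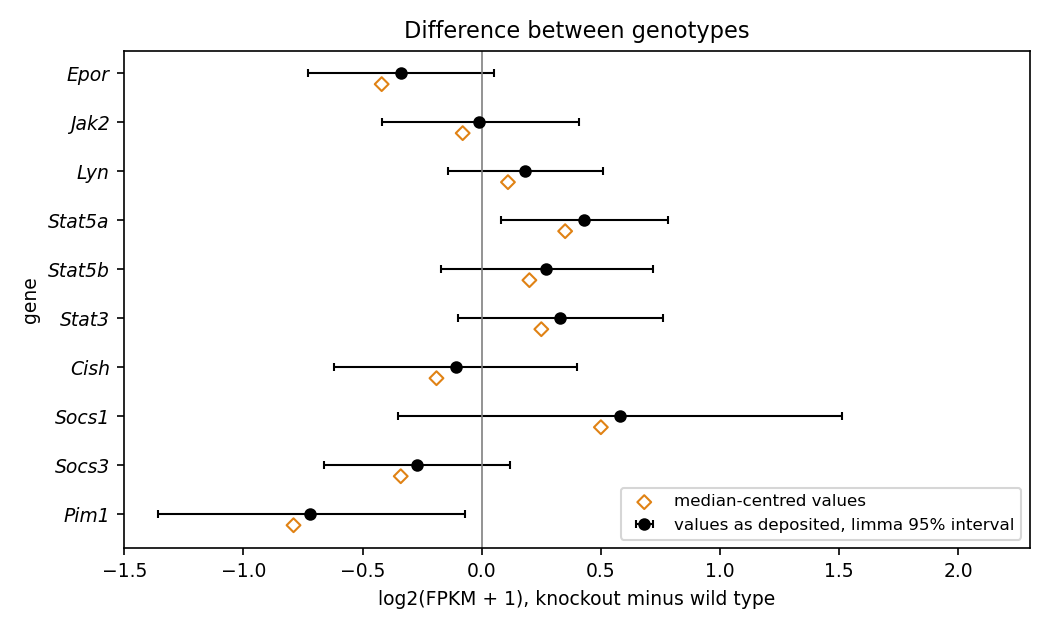
Difference in log2(FPKM + 1), knockout minus wild type, for each of the 10 genes, with limma 95% intervals (black) and the value after median centring (open diamonds). The intervals of Stat5a and Pim1 exclude 0 before adjustment over all genes, and centring lowers each value slightly without turning a direction.

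The feedback inhibitors differed in direction, and none passed the test. Cish (gene ID 12700, chromosome 9, 107296659 to 107302784), an SH2 protein that competes for Stat5 docking sites on the receptor, was the most abundant of them, with 123 and 83.1 FPKM in knockout and 117 and 102 FPKM in wild type. The knockout libraries held both the highest and the lowest value, and the log2 difference of −0.11 had a 95% interval of −0.62 to 0.40 (limma adjusted p = 0.91). Cish made up 74.5% and 72.7% of the summed FPKM of Cish, Socs1, Socs2 and Socs3 in knockout, and 73.3% and 72.7% in wild type. The antisense gene Gm17041 shares 479 exon bases with Cish and the pseudogene Gm17040 shares 261, so reads may be shared.

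Socs3 (gene ID 12702, chromosome 11, 117966079 to 117970336), which blocks Jak activity and binds the phosphorylated receptor, stood at 20.2 and 15.7 FPKM in knockout and at 22.1 and 21.2 FPKM in wild type. Both knockout libraries were lower, with library 2 the lowest. The log2 difference was −0.27 (SE 0.16, 95% interval −0.66 to 0.12, limma adjusted p = 0.617), and −0.10 without knockout library 2. Over the 4 libraries its profile was the most like that of Epor among the members and the 82 other pathway genes tested, at a Euclidean distance of 0.07 between mean-centred log2 values. Socs2 came next, at 0.20. Klf1, an erythroid marker outside these lists, was not in that comparison. It stood at 260 and 194 FPKM in knockout and at 298.5 and 272 FPKM in wild type. Its log2 difference was −0.34 (limma adjusted p = 0.562), and its knockout mean was 79.5% of that in wild type. Over so few libraries such likeness is only a description.

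Socs1 (gene ID 12703, chromosome 16, 10783808 to 10785536), an inhibitor that binds the Jak kinase domain, was close to the filter, at 5.06 and 2.10 FPKM in knockout and 2.76 and 1.24 FPKM in wild type. Library 1 was higher than library 2 in both genotypes, and wild-type library 1 lay above knockout library 2. The means were 3.58 ± 2.09 FPKM in knockout and 2 ± 1.07 FPKM in wild type (SD, n = 2 each), and the log2 difference of 0.58 (SE 0.38) did not pass the test (limma adjusted p = 0.659). Without knockout library 2 it was 1.06 and passed (limma adjusted p = 0.00276), and without knockout library 1 it was 0.10 (adjusted p = 0.926). Without wild-type library 1 it was 0.95 (limma adjusted p = 0.922) and without wild-type library 2 it was 0.21 (adjusted p = 1.0), so the value depends on which library of either genotype is used. Passing is also more frequent in fits that lack a knockout library, with 738 of all genes past the threshold without knockout library 1 and 328 without knockout library 2, against 10 with all libraries. With a pseudocount of 1 these log2 values understate the change of so low a gene.

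Pim1 (gene ID 18712, chromosome 17, 29490785 to 29496111), a serine/threonine kinase that promotes survival and is a classic Stat5 target, had the largest difference of the 10. It stood at 226 and 136 FPKM in knockout, against 329 and 254 FPKM in wild type. The groups did not overlap, and library 2 was the lower of the pair in each genotype. The mean of 181 ± 63.5 FPKM in knockout was 62.1% of the 292 ± 52.9 FPKM in wild type (SD, n = 2 each). The log2 difference was −0.72 (SE 0.27, 95% interval −1.36 to −0.07, unadjusted p = 0.0346), and it did not pass over all genes (limma adjusted p = 0.395). Without knockout library 1 it was −1.08 and passed (limma adjusted p = 5.37e-05), and without knockout library 2 it was −0.36 (adjusted p = 0.558). It did not pass without wild-type library 1 (limma adjusted p = 1.0) or wild-type library 2 (0.774). The antisense gene Gm26885 shares 488 exon bases with Pim1.

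The libraries of a genotype also differed from each other, and for several members by as much as the genotypes did. From library 1 to library 2 Pim1 differed by −0.73 in knockout and −0.37 in wild type on the log2 scale. Socs1 differed by −0.97 and −0.75, and Cish by −0.56 and −0.20. Jak2, Lyn, Stat5b and Stat3 were higher in library 2 in both genotypes, and the other 6 members were lower in library 2 in both. Over all tested genes, 46.5% were lower and 24% higher in library 2 in both genotypes. The labels do not say what the numbers stand for.

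**Figure D3:**
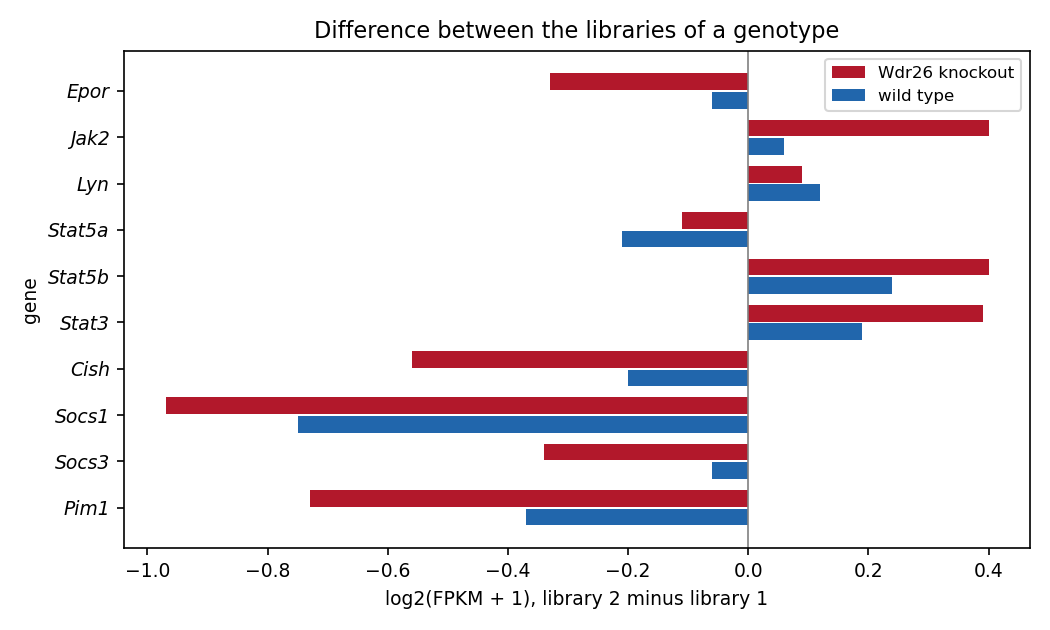
Difference in log2(FPKM + 1), library 2 minus library 1, for each of the 10 genes in knockout and in wild type. Each gene has the same sign in both genotypes, and the largest bars are those of Socs1.

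A wider list of 112 genes of cytokine receptor signalling put these members in context. Of these, 102 had a row, 82 were tested and 0 passed over all genes in either direction. At an unadjusted p under 0.05 there were 10, with 8 higher, Il2rg among them, and 2 lower. Il2rg and Lck passed the filter only through their knockout values, so their direction was fixed by the filter. They are left out of the counts of higher and lower genes that follow. Without them 9 of 80 were at an unadjusted p under 0.05, beside 11.4% of all tested genes. Of these 7 were higher, beside 9.02%, and 2 lower, beside 2.4%. Both knockout libraries lay above both wild-type libraries for 27 of the other 80 tested genes (33.8%, beside 29.9% of all genes) and below them for 11 (13.8%, beside 10.8%), and 42 overlapped. With median-centred values 15 were higher and 16 lower in both, beside 19.9% and 20.1% of all genes. The median log2 difference of the tested genes was 0.11, beside 0.07 over all tested genes.

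Among receptors, 11 of the 21 listed were tested. Leaving out Il2rg, 5 of 10 were higher in both knockout libraries, beside 29.9% of all genes, and 5 of 10 with median-centred values, beside 19.9%. The most abundant was Csf2rb, the beta chain shared by the receptors for GM-CSF, interleukin-3 and interleukin-5, at 1275 and 1456 FPKM in knockout and 1292 and 1356 FPKM in wild type. The ratio of Csf2rb to Epor was 4.51 and 6.47 in knockout and 3.95 and 4.33 in wild type. Csf2rb shares 892 identical stretches of 50 bases with its near copy Csf2rb2, so their split is uncertain. Their summed FPKM was 2387 and 2518 in knockout and 2238 and 2253 in wild type. Il2rg, the common gamma chain of the interleukin-2 receptor family, was at 8.88 and 5.29 FPKM in knockout and 0.83 and 0.86 FPKM in wild type. Because only its knockout values brought it past the filter, it is described here with no test. Il2rg overlaps the annotated gene Gm20489 on the same strand by 728 exon bases. Kit, the stem cell factor receptor, is listed at 0 in all 4 libraries, as are Stat4 and Yes1.

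The class of Src and Tec family kinases had 6 tested genes, among them Syk, a kinase of another family. Lck was tested only because of its knockout values. The other 5 were higher in both knockout libraries, beside 29.9% of all genes. With median-centred values 4 of these 5 were, beside 19.9%, and Syk overlapped. Lyn, also a Src family kinase, is counted with the members and overlapped with that scaling. Src stood at 10.95 and 12.0 FPKM in knockout and at 5.23 and 5.43 FPKM in wild type, 2.15-fold (log2 difference 0.98, SE 0.14). It did not pass (limma adjusted p = 0.101). With single libraries left out its adjusted p was 0.000227 and 0.00311 without knockout libraries 1 and 2, and 0.58 and 0.447 without wild-type libraries 1 and 2. Btk, the most abundant of them, stood at 77.3 and 74.0 FPKM in knockout and at 60.0 and 64.7 FPKM in wild type (limma adjusted p = 0.502). The other Jak and Stat genes differed little: Tyk2 had 65.7 and 74.4 FPKM in knockout and 60.3 and 58.9 FPKM in wild type, and Stat6 had 31.1 and 28.9 FPKM in knockout and 28.2 and 26.1 FPKM in wild type. Osm, the gene for oncostatin M and the only ligand high enough to test, had 6.63 and 3.72 FPKM in knockout and 4.97 and 4.06 FPKM in wild type.

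Adaptors and negative regulators held differences in both directions, none of them past the threshold. Of 21 adaptors, 8 lay above and 3 below both wild-type values in each knockout library, and of 20 negative regulators 5 lay above and 2 below, beside 29.9% and 10.8% of all genes. With median-centred values the adaptors had 3 above and 5 below and the negative regulators 2 above and 4 below, beside 19.9% and 20.1%. Plcg2, a phospholipase that relays receptor signals, stood at 14.6 FPKM in both knockout libraries and at 8.80 and 8.65 FPKM in wild type (log2 difference 0.68, SE 0.13, limma adjusted p = 0.166). Its adjusted p was 0.0267 and 0.0468 without knockout libraries 1 and 2, and 0.731 and 0.74 without wild-type libraries 1 and 2. Irs2, an adaptor of insulin and cytokine receptors, was the adaptor with the largest difference among those lower in both, at 65.55 and 80.5 FPKM in knockout and 98.2 and 130 FPKM in wild type (log2 difference −0.63, SE 0.19, limma adjusted p = 0.311). With single libraries left out the adjusted p of Irs2 ranged from 0.00916, without knockout library 2, to 0.968. Irs2 shares 162 exon bases with 9530052E02Rik on the opposite strand. Dok2, an adaptor that restrains Ras signalling, stood at 17.1 and 18.7 FPKM in knockout and at 10.7 and 13.3 FPKM in wild type (limma adjusted p = 0.296). With single libraries left out the adjusted p of Dok2 was 0.0454 and 0.232 without knockout libraries 1 and 2, and 1.0 and 0.713 without wild-type libraries 1 and 2. The kinase Akt1 averaged 191 ± 10.6 FPKM in knockout and 171 ± 7.26 FPKM in wild type (SD, n = 2 each). Pias3, an inhibitor of Stat3, averaged 64.4 ± 6.46 FPKM in knockout and 56.4 ± 6.17 FPKM in wild type.

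The targets of erythropoietin and Stat5 were the only class of the wider list with a median below 0. Of 17 tested, 2 lay above and 6 below both wild-type values in each knockout library, beside 29.9% and 10.8% of all genes. With median-centred values 0 lay above and 6 below, beside 19.9% and 20.1%. The median log2 difference of the class was −0.09, or −0.17 with median-centred values. Fam132b, which encodes the erythroblast hormone erythroferrone that lowers hepcidin, stood at 17.1 and 6.81 FPKM in knockout and at 30.6 and 17.8 FPKM in wild type. Both knockout libraries were lower, by a narrow margin for library 1, and the log2 difference of −1.03 (SE 0.43) did not pass (limma adjusted p = 0.438). Without knockout library 1 it was −1.64 and passed (limma adjusted p = 3.37e-13), while without knockout library 2 it was −0.43 (adjusted p = 0.305). Without wild-type library 1 it was −0.66 (limma adjusted p = 1.0), and without wild-type library 2 it was −1.41 (adjusted p = 0.701). Fam132b shares 357 exon bases with Ilkap on the opposite strand. Ccnd3, a cyclin that sets red cell size and number, was the most abundant target, at 473 and 440.3 FPKM in knockout and 409 and 427 FPKM in wild type.

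**Figure D4:**
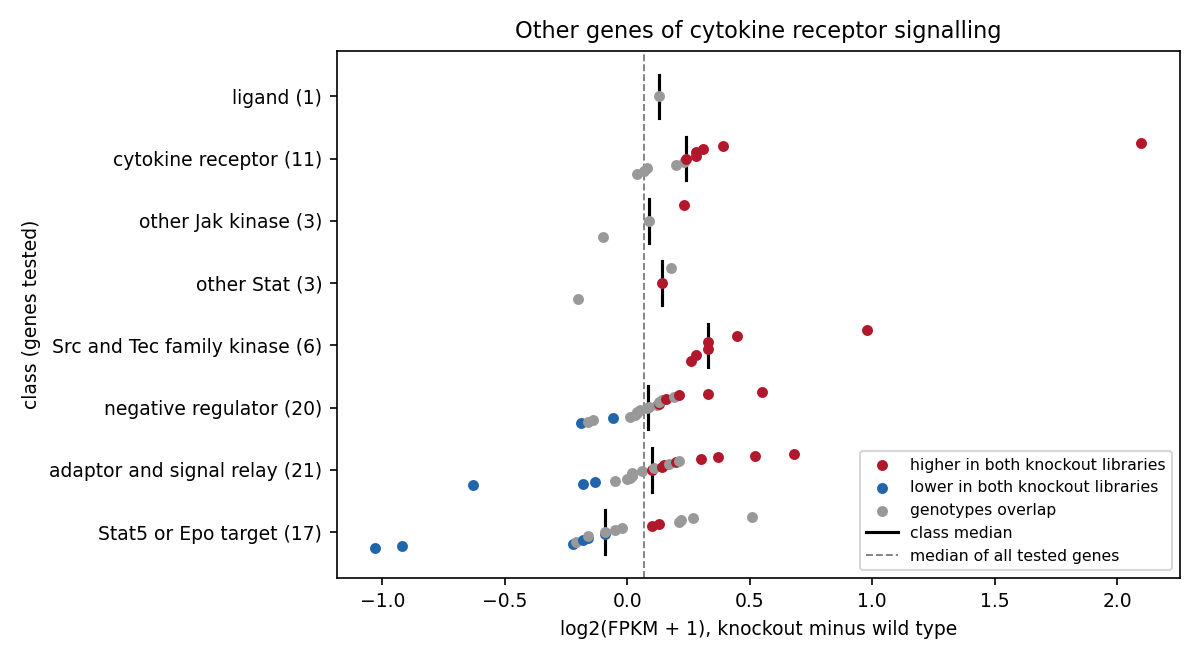
Difference in log2(FPKM + 1), knockout minus wild type, of the 82 tested genes of the wider list by class, colored by whether both knockout libraries lay above or below both wild-type libraries. Src, Fyn, Btk, Tec and Syk (of another family) are the genes of the Src and Tec class whose direction the filter did not fix. They lie to the right of the median of all tested genes (dashed), while the class of Stat5 or Epo targets has its median to the left of it.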

How the data were processed

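RNA of 2 Wdr26 knockout and 2 wild-type libraries was measured after depletion of ribosomal RNA, per the labels' protocols. The authors deposited one table of all genes with no unit in its header. The values the authors deposited behave as FPKM, that is, scaled by the authors to transcript length and depth: multiplied by transcript length they summed to between 1.02e+09 and 1.04e+09 per library, while plain sums differed. TopHat2 and mm10 are named in the submitters' processing notes, and no source used here names the program behind the values. Depth was estimated from the steps worth 1 fragment in short genes, taking 200 bases off each transcript's length, and is approximate. No counting interval was computed.

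Values were converted to log2(FPKM + 1), and the 10670 genes that reached 1 FPKM in 2 or more libraries were compared, knockout minus wild type, with limma 3.58.1 in R 4.3.3 (eBayes with a mean-variance trend, no covariates) and Benjamini-Hochberg adjustment over all of them (threshold 0.05). With 2 against 2 no exact permutation test can go below p = 0.333, so none was run. Same-numbered libraries are not said to be paired, so the number entered only an alternative. Coordinates came from the RefSeq gene table (GRCm38.p6), overlaps and shared sequence from GENCODE M21. Start windows came from RefSeq.

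The members and lists were chosen with earlier results of these data known. All members are named. Some genes are not reported here. In each class of the wider list the most abundant gene and the gene with the largest difference without overlap are named. Csf2rb2, Lck, Kit, Stat4, Yes1, Fyn, Tec, Syk, Irs2, Slc4a1 and Tfrc were named after their values were seen. The same holds for the separate mention of the markers Alas2, Klf1, Itga2b, Gp9 and Gp1ba. Alternatives were median centring, quantile normalization, no filter, a mean of at least 5 FPKM, no trend, a pseudocount of 0.1, a library-number block with and without centring, leaving out each library, and leaving out globin genes with rescaling. Counts of non-overlapping members under other scalings were chosen after seeing the data.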

Additional observations from a re-analysis of the deposited data

How the results depend on the processing

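No member passed the adjusted threshold in the fit reported or with median-centred values, quantile normalization, no filter, a mean of at least 5 FPKM, no trend, a pseudocount of 0.1 or globin genes left out. With the library number as a replicate block, in fits with 1 residual degree of freedom per gene, 5 members passed (Stat5a, Stat3 and Socs1 higher, Epor and Pim1 lower), and 3 passed when median centring was added (Pim1, Socs1 and Stat5a). Of all tested genes 1863 and 1391 passed in those fits, and of the wider list 13 and 9. Deviations from the group means correlated at 0.61 between same-numbered libraries over genes, which is a hint from the data and not from the design. With single libraries left out, members past the threshold ranged from 0 to 1 (Pim1 without knockout library 1, Socs1 without knockout library 2), wider-list genes from 0 to 8, and all tested genes from 3 to 738. Those fits assume that the lone library of a genotype varies like the other pair. Of all tested genes 10 passed in the fit reported, 0 passed without the filter on low genes (1692 at an unadjusted p under 0.05), 2 with the stricter filter on the mean, and 21 with globin genes left out and rescaled, where 1 gene of the wider list passed, Il2rg, which was tested only because of its knockout values. Socs1 could not be fitted with a mean of at least 5 FPKM.

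Of 129 alternative values for the members, 126 kept their direction, but many of them could not change it. No filter, the filter on the mean, no trend and the block leave the log2 difference of a gene unchanged. The block with median centring repeats the centred value. With single libraries left out Jak2 ranged from −0.21 to 0.19 (0.03 when wild-type library 2 was missing) and Cish from −0.39 to 0.17. In the wider list Csf2rb turned to −0.03 with median centring, with or without the block, −0.04 with quantile normalization, and −0.02 with globin genes left out. It ranged from −0.05 to 0.14 with single libraries left out, and Osm from −0.22 to 0.47. The cause was not tested. Members higher in both knockout libraries numbered 3 in the values as deposited, beside 29.9% of all tested genes. They numbered 1 with median centring, beside 19.9%, 1 with quantile normalization, and 2 with globin genes left out (Lyn and Stat5a). Epor, Pim1 and Socs3 were the 3 lower in both under each of these scalings, beside 10.8% of all genes as deposited and 20.1% with median centring. No share over all genes was computed for quantile normalization or with globin genes left out. The counts under those scalings, higher or lower, therefore have no background to be judged by. What depth adds to these errors was not tested, since no counting interval was computed.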
